A study of Mus musculus with 8 samples.

Results

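The genes described here encode the effector cytokines of group 2 and group 3 innate lymphoid cells (ILC2 and ILC3): Il22, Iltifb, Il17a and Il17f on the ILC3 side, and Il4, Il5, Il9, Il13 and Areg on the ILC2 side. They were chosen by name, as all rows of the deposited gene table that carry one of these symbols, and are 9 of its 34745 genes. They were followed over 8 bulk RNA-seq libraries from 3 populations of untreated wild-type B6 mouse fetal liver. ILC1/3P cells (n = 2) were sorted as Flt3-, PD-1- and CD94+, and ILCP (n = 3) as Flt3-, PD-1+ and CD94-, both with the integrin α4β7. CLP (n = 3) were sorted as Flt3+ cells. All 3 gates were lineage-negative, CD45+, CD127+ and CD25-, so cells with surface CD25 were left out of every group. CD94 marks a progenitor gate that the labels name for ILC1 and ILC3, PD-1 marks innate lymphoid cell precursors (ILCP), and CLP is the usual short form for common lymphoid progenitors. The labels do not say how many animals or litters went into a library. They also carry an adult age in weeks, although the tissue is fetal.

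Innate lymphoid cells answer signals from damaged or infected tissue by releasing cytokines without an antigen receptor. ILC2 respond to alarmins such as IL-33, IL-25 and TSLP with IL-5, IL-13, IL-4, IL-9 and amphiregulin, which act in type 2 immunity and tissue repair. ILC3 respond to IL-23 and IL-1β with IL-22 and IL-17, which strengthen epithelial barriers and draw in neutrophils. Gata3 and Rora direct the ILC2 program, and Ahr and Stat3 act in the ILC3 program. Progenitors upstream of these cells are generally defined by their transcription factors, and effector transcripts are known mainly from mature cells.

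Il22 and Iltifb lie on mouse chromosome 10 on opposite strands, Il22 at chr10:118204942-118210047 and Iltifb at chr10:118289629-118295038 (mm10). Iltifb is a copy of Il22 that is found in the C57BL/6 genome. Their GENCODE M21 transcripts of 1110 and 1111 bases aligned with 29 substitutions and 1 gap column, an identity of 97.3%. The coding sequences, 537 bases each, differed at 9 bases. The stretch of 120 coding bases (bases 100 to 219) with the most differences is shown because it is the coding part that best tells their reads apart; capitals mark the 5 bases that differ.
Il22: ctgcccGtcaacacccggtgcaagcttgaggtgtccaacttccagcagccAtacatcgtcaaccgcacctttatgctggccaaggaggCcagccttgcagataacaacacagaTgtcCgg
Iltifb: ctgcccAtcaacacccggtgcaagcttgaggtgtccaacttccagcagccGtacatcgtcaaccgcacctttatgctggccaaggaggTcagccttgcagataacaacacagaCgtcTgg
A read from a stretch that both share cannot be given to one gene. Of all windows of 50 bases in either transcript 41% occur without a change in the other, and at 150 bases 7.7% do. How the authors assigned reads that match both genes is not given in the sources used here, so the split between Il22 and Iltifb is uncertain and their sum is the safer value.

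The sequence before the annotated start is shown for the members that the comparisons turn on, so that the copies Il22 and Iltifb, and the ILC2 and ILC3 genes, can be set side by side. The windows are RefSeq sequence on GRCm38.p6, at most 250 bases long, read 5′ to 3′ on the gene's strand, without bases in an annotated exon of the gene. The window of Il17f starts from a RefSeq start that lies inside its GENCODE span, and a second RefSeq start of Il4 is not shown. Capitals mark 4 motifs searched on both strands. GATA is the core of GATA factor sites. The TATA box was searched as TATAAA. The half-site of nuclear receptors was searched as AGGTCA. The cAMP response element was searched as TGACGTCA.
Il22 (plus strand, chr10:118204714-118204941): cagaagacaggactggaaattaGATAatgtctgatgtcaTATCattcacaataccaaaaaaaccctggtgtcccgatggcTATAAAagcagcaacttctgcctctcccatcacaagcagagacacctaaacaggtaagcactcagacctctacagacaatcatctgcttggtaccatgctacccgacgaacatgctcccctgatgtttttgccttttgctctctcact
Iltifb (minus strand, chr10:118295039-118295288): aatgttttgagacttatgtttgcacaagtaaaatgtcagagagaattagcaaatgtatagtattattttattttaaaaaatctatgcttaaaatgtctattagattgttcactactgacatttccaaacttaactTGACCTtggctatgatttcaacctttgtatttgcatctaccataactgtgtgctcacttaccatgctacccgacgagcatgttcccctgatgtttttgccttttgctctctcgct
Il17f (minus strand, chr1:20784271-20784494): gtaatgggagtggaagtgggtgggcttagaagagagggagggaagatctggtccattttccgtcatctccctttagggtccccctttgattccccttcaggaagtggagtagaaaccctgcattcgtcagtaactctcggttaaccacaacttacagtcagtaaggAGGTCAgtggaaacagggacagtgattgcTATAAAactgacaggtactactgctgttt
Il4 (minus strand, chr11:53618670-53618915): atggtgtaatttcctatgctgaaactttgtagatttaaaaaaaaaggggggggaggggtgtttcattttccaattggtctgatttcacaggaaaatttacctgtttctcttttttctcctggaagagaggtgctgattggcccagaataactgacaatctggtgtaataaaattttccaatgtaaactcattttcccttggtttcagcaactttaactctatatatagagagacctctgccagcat
Il13 (minus strand, chr11:53634703-53634952): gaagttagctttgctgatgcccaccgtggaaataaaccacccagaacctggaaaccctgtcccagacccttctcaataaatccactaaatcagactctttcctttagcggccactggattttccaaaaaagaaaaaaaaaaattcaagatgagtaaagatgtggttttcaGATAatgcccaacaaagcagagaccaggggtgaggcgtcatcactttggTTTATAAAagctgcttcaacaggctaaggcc
Areg (plus strand, chr5:91139349-91139598): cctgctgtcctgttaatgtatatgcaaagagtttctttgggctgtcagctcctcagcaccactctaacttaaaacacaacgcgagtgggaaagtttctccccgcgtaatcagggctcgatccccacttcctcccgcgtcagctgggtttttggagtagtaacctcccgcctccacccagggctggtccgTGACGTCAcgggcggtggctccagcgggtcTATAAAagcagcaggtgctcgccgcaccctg
Il22 and Iltifb aligned over the last 57 bases before the start (94.7% identical), and no further stretch was part of that local alignment. The Il22 window held 2 GATA matches and 1 TATA box match, while the Iltifb window held neither and had 1 nuclear receptor half-site match on the opposite strand. Il17f had 1 nuclear receptor half-site and 1 TATA box match. Il13 had 1 GATA match and the TATA box letters on both strands, in matches that overlap. Areg had 1 TATA box and 1 cAMP response element match, and the Il4 window shown held none of the 4 motifs. The window at the second RefSeq start of Il4 (chr11:53617339-53617588) held 3 GATA matches. Among 32851 mouse windows of 250 bases, the GATA letters were in 53.6%, the TATA box in 12.4%, the nuclear receptor half-site in 14% and the cAMP response element in 1.55%. A match describes these letters and is not evidence of binding.

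Total counts were 6310739 and 8082476 in ILC1/3P, 6043940 to 6905448 in ILCP and 4991939 to 7167619 in CLP libraries. Of 8 genes for the sorted surface proteins, some followed the gates and others did not. Flt3 averaged 0, 0.427 and 459 CPM in ILC1/3P, ILCP and CLP, Pdcd1 (PD-1) 13.8, 77.7 and 0 CPM, and Klrd1 (CD94) 1407, 44.7 and 52.2 CPM. Pdcd1 was higher in the PD-1- ILC1/3P than in CLP (adjusted p = 0.000137). Itgb7, the β7 chain, was higher in ILC1/3P and in ILCP than in CLP (adjusted p = 0.00545 and 0.00576), while Itga4, the α4 chain, was lower in ILC1/3P (134 ± 48.4 CPM) than in CLP (371 ± 60.4 CPM, adjusted p = 0.0036). Il2ra, which encodes CD25, averaged 2.30, 7.57 and 0 CPM in ILC1/3P, ILCP and CLP although all gates were CD25-. It was called higher in both than in CLP (adjusted p = 0.0217 and 0.0209), calls that ended without some single libraries (highest adjusted p = 0.0825 and 0.0645). Il7r, which encodes CD127, was lower in ILC1/3P than in CLP (215 ± 0.714 against 434 ± 79.9 CPM, adjusted p = 0.00968, and 0.0528 without ILC1/3P replicate 2), and Ptprc (CD45) was not called in any comparison. CPM are counts divided by the TMM-scaled library size, and the averages of genes below carry the SD between libraries. GEO lists 1 batch for all libraries, so no batch could be compared. Because no label says that libraries of a group came from separate animals, p-values cover the spread among these libraries alone, and that spread may be technical. In bulk RNA fewer cells of a type and less RNA per cell cannot be told apart.

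Transcripts of 7 of the 9 cytokines were counted in at least 1 library, and Il17a and Il9 had no count in any. Il22, Iltifb, Il17f and Il4 were higher in ILC1/3P and in ILCP than in CLP, and between ILC1/3P and ILCP a single member, Il4, passed the test. Il13 was counted in ILC1/3P libraries alone, Il5 in 2 ILCP libraries alone, and Areg in all 3 groups with no difference past the test. The 2 ILC1/3P libraries carried unlike mixes per length: Il17f led over Il4 in one, and Il4 and Areg led over Il17f in the other.

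**Figure D1:**
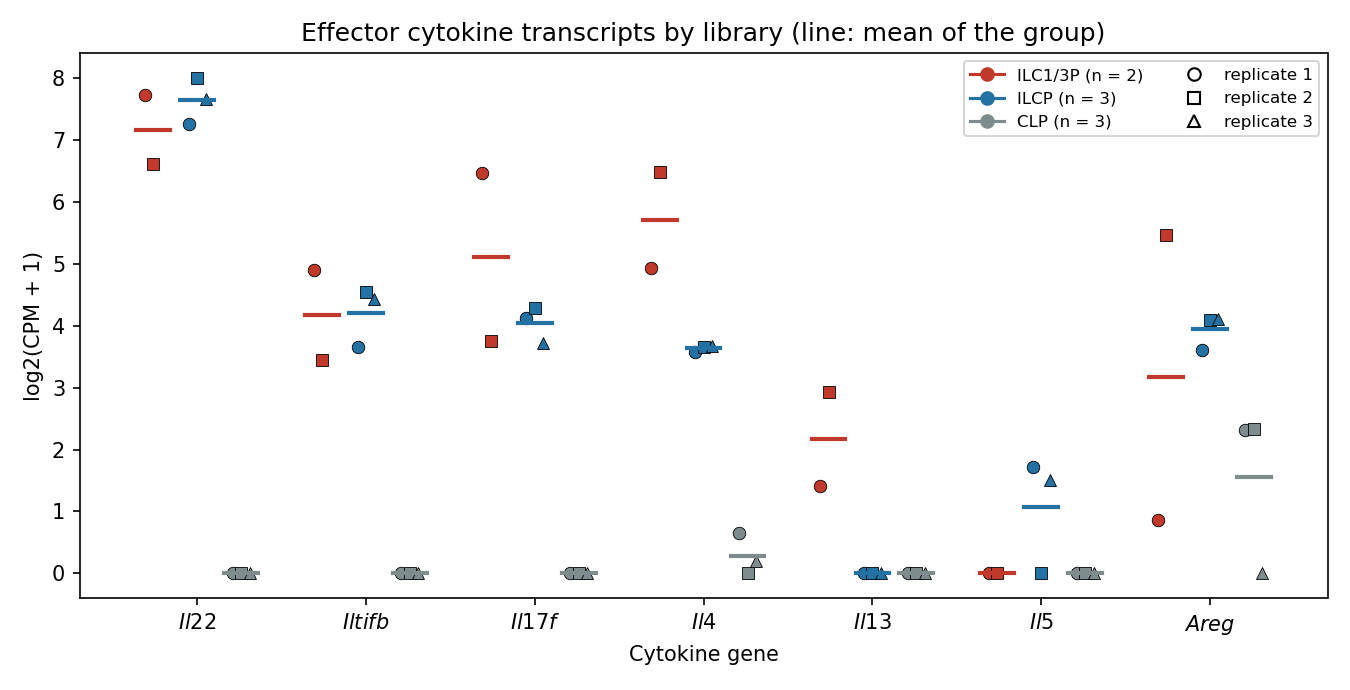
log2(CPM + 1) of the 7 cytokine genes with any count, 1 point per library (shape: replicate; colour: ILC1/3P, n = 2, ILCP, n = 3, and CLP, n = 3), with a line at the mean of the plotted values of a group. Il22, Iltifb and Il17f stand at 0 in all 3 CLP libraries, and the ILC1/3P points of Areg lie furthest apart (0.822 and 43.3 CPM).

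Of the ILC3 cytokines, Il22, whose product acts on epithelial cells, was the most abundant per length. It had 1281 and 409 counts in ILC1/3P libraries 1 and 2 (211 and 96.7 CPM). The ILCP libraries had 1069, 1852 and 1430 counts (152, 256 and 201.3 CPM), and the 3 CLP libraries had none. The ILC1/3P and ILCP libraries overlapped, and both stood clear of CLP. Averages were 154 ± 80.6 CPM for ILC1/3P (n = 2), 203 ± 52.0 for ILCP (n = 3) and 0 for CLP (n = 3), where 3 counts over the group would be 0.143 CPM. Against that floor Il22 was at least 1148-fold higher in ILC1/3P than in CLP (edgeR adjusted p = 6.1e-06) and at least 1425-fold higher in ILCP than in CLP (adjusted p = 6.04e-06). Without ILC1/3P replicate 1 the first of these limits was 677-fold. Leaving out 1 CLP library lowers every limit against CLP, to as low as 666-fold and 827-fold for Il22, since fewer CLP counts stand behind the floor. Between ILC1/3P and ILCP the log2 fold change was -0.40 ± 0.39 (SE, adjusted p = 0.538), and it changed sign without ILC1/3P replicate 2 (0.062). A p above the threshold does not show that the groups were alike.

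Iltifb ran along with Il22 at a lower level. It had 175 and 42 counts in ILC1/3P (28.8 and 9.93 CPM), 82, 161 and 146 counts in ILCP (11.7, 22.2 and 20.6 CPM) and none in CLP. For every 100 counts of Il22 there were 13.7 and 10.3 counts of Iltifb in ILC1/3P, and 7.67, 8.69 and 10.2 in ILCP. ILC1/3P replicate 2 and ILCP replicate 1 were the lowest of these 5 libraries in both genes, which share sequence. Iltifb was at least 147-fold higher in ILC1/3P than in CLP (adjusted p = 0.000462) and at least 127-fold higher in ILCP than in CLP (adjusted p = 0.000966), and the first of these limits was 69.5-fold without ILC1/3P replicate 1. Between ILC1/3P and ILCP it stood at 0.10 ± 0.78 (log2 ± SE, adjusted p = 0.967), and its sign turned with library-size scaling alone (-0.49). With the counts of both genes summed, the log2 fold change between ILC1/3P and ILCP was -0.35 (adjusted p = 0.596).

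Il17f encodes a cytokine that acts on epithelium and stroma and recruits neutrophils (chr1:20777146-20790617). It had 529 and 53 counts in ILC1/3P (87.0 and 12.5 CPM), 116, 134 and 87 counts in ILCP (16.5, 18.5 and 12.2 CPM) and none in CLP. One ILC1/3P library was far above the ILCP range and the other lay within it. Il17f means were 49.8 ± 52.7 CPM for ILC1/3P, 15.8 ± 3.20 CPM for ILCP and 0 for CLP. Il17f was at least 395-fold higher in ILC1/3P than in CLP (adjusted p = 0.000302) and at least 110-fold higher in ILCP than in CLP (adjusted p = 0.0015). The first of these limits was 87.7-fold without ILC1/3P replicate 1 and 609-fold without replicate 2. The difference between ILC1/3P and ILCP (1.66 ± 0.77, log2 ± SE, adjusted p = 0.183) rested on 1 library. It was 2.47 with an adjusted p of 0.0381 without ILC1/3P replicate 2, and -0.33 with an adjusted p of 0.883 without ILC1/3P replicate 1. Its partner Il17a, whose gene lies beside it on chromosome 1 (chr1:20730905-20734496), had no count in 52139714 counts over all libraries. A count of 0 allows up to 0.291 CPM over the ILC1/3P libraries, 0.140 CPM over ILCP and 0.143 CPM over CLP.

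Among the ILC2 cytokines, Il4, best known as the driver of type 2 helper T cells, was the only member that passed the test in all 3 comparisons. Il4 (chr11:53602982-53618669) had 179 and 374 counts in ILC1/3P (29.4 and 88.4 CPM), 77, 84 and 83 counts in ILCP (10.95, 11.6 and 11.7 CPM), and 5, 0 and 1 counts in CLP (0.567, 0 and 0.148 CPM). The 3 groups did not overlap, with ILC1/3P highest and CLP lowest. The means were 58.9 ± 41.7 CPM for ILC1/3P, 11.4 ± 0.404 for ILCP and 0.238 ± 0.294 CPM for CLP. Il4 was higher in ILC1/3P than in CLP (7.68 ± 0.92, log2 ± SE, adjusted p = 0.000161) and in ILCP than in CLP (5.32 ± 0.84, adjusted p = 0.00209). It was also higher in ILC1/3P than in ILCP (2.36 ± 0.71, adjusted p = 0.0417). That last call ended without ILC1/3P replicate 2 (1.37, adjusted p = 0.454), without ILCP replicate 1, 2 or 3 (adjusted p = 0.114, 0.0824 and 0.11) and without CLP replicate 3 (adjusted p = 0.0547). It was lost too with library-size scaling alone (1.69, adjusted p = 0.153), while the sign held each time.

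Il13 and Il5 lie in the same type 2 cytokine cluster on chromosome 11 as Il4, and each was detected at low counts in 1 group. Il13, which drives mucus production and smooth muscle responses, had 10 and 28 counts in ILC1/3P (1.64 and 6.62 CPM) and none in ILCP or CLP. In pooled counts the limits for Il13 were 26.3-fold higher in ILC1/3P than in ILCP and 25.8-fold higher than in CLP, but it did not pass the filter on low counts. Without ILC1/3P replicate 2 these limits were 11.7-fold and 11.5-fold. Tested without that filter, its adjusted p was 0.0867 against ILCP and 0.0704 against CLP. Il5, the growth and survival factor of eosinophils, had no count in ILC1/3P or CLP, and 16, 0 and 13 counts in ILCP (2.28, 0 and 1.83 CPM). In pooled counts the limit was 4.66-fold lower in ILC1/3P than in ILCP (adjusted p = 0.288) and 9.50-fold higher in ILCP than in CLP (adjusted p = 0.272). Neither comparison passed the test, and ILCP replicate 2 had no count of Il5. The limit against ILCP was 1.91-fold without ILC1/3P replicate 1, and the limit against CLP 6.35-fold without ILCP replicate 1. An exon of Il5 overlaps the predicted gene Gm12214, which had 6 and 5 counts in the same ILCP libraries 1 and 3 and none elsewhere. Without stated strand use the reads of these genes cannot be told apart. Il9, a mast cell and ILC2 growth factor, had no count in any library.

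Areg encodes amphiregulin, a ligand of the EGF receptor that ILC2 release during tissue repair (chr5:91139599-91148432). It had 5 and 183 counts in ILC1/3P (0.822 and 43.3 CPM), 79, 116 and 116 counts in ILCP (11.2, 16.03 and 16.3 CPM), and 35, 22 and 0 counts in CLP (3.97, 4.05 and 0 CPM). The ILCP libraries all lay above the CLP libraries, while the ILC1/3P libraries lay on either side of the ILCP range. The means were 22.0 ± 30.0 CPM for ILC1/3P, 14.5 ± 2.86 for ILCP and 2.67 ± 2.31 CPM for CLP. No comparison passed the test: ILC1/3P against ILCP gave 0.60 ± 1.36 (log2 ± SE, adjusted p = 0.823), ILC1/3P against CLP 3.03 ± 1.41 (adjusted p = 0.144) and ILCP against CLP 2.44 ± 1.31 (adjusted p = 0.35). Against CLP the ILC1/3P value was 4.00 with an adjusted p of 0.0328 without ILC1/3P replicate 1, and -1.69 with an adjusted p of 0.561 without ILC1/3P replicate 2. Against ILCP the sign turned with library-size scaling alone (-0.11) and without ILC1/3P replicate 2 (-4.10).

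Cell types outside the gates can also make these cytokines, so their markers were summed in each library. The 12 mast cell and basophil markers summed to 189 to 251 CPM in ILC1/3P, 485 to 633 CPM in ILCP and 2.83 to 4.42 CPM in CLP. In ILC1/3P and ILCP nearly all of it was Cpa3 (211 ± 36.6 and 536 ± 79.6 CPM). In CLP Cpa3 averaged 0.939 ± 1.63 CPM and Hdc 2.71 ± 1.77 CPM. Mcpt8, Mcpt4, Mcpt2, Tpsb2, Tpsab1, Fcer1a, Ms4a2 and Prss34 were at 0 in all 3 groups. The 9 T cell markers summed to 2379 to 3696 CPM in ILC1/3P, 1449 to 2291 CPM in ILCP and 7.14 to 29.6 CPM in CLP, mostly Cd3g, with Cd4 at 0 in ILC1/3P and ILCP. The 10 eosinophil and neutrophil markers summed to 4.73 to 25.8, 16.9 to 22.1 and 508 to 765 CPM, the last mostly Mpo, with Epx at 0 in all groups. Hepatocyte markers summed to 27.5 CPM or less and erythroid markers to 27.2 CPM or less in any library. The T cell sum and Cpa3 were higher in every ILC1/3P and ILCP library than in any CLP library, as were Il22, Iltifb, Il17f and Il4, and their part in these results was not tested.

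Counted together, 6 of the 9 members passed the filter on low counts. In ILC1/3P against CLP 4 were higher and 0 lower, where 11.8% of the 13436 genes tested were called higher and 11.7% lower. In ILCP against CLP the same 4 were higher and 0 lower, with 3.91% of genes called higher and 2.87% lower. With the counts of Il22 and Iltifb summed into 1 gene, 3 were higher in each of these comparisons. In ILC1/3P against ILCP 1 was higher and 0 lower, with 8.06% of genes called higher and 8.25% lower. By libraries that did not overlap, 4 of the 6 members tested stood higher in ILC1/3P than in CLP (23.3% of genes tested), 5 in ILCP than in CLP (14.1%) and 1, Il4, in ILC1/3P than in ILCP (20.2%). Il13, which was not among the genes tested, also stood higher in both ILC1/3P libraries than in any other. The members passed the filter through the groups in which they were counted, so these counts describe them and lend no support. Both comparisons with CLP use the same CLP libraries, and Il22, Iltifb and Il17f had no count in them. By group mean in CPM the order was ILC1/3P, ILCP, CLP for Iltifb, Il17f, Il4 and Areg, and ILCP, ILC1/3P, CLP for Il22. Only for Il4 did all neighbours in that order pass the test. Per kilobase and library total, a scale without TMM, the mean was higher in ILCP than in ILC1/3P for Iltifb (17.33 against 12.35) and Areg (13.14 against 12.19).

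The 2 ILC1/3P libraries differed in these genes by more than the median gene did (0.61 log2 units). Il22, Iltifb and Il17f were higher in replicate 1, by 2.18, 2.90 and 6.95 times in CPM. Il4, Il13 and Areg were higher in replicate 2, by 3.00, 4.02 and 52.6 times. Of 9065 genes with a mean of at least 5 CPM in ILC1/3P, 26.2% differed as much between these libraries as Il22 and 17.5% as much as Iltifb. The shares were 5.52% for Il17f, 15.6% for Il4 and 0.408% for Areg. The 3 ILCP libraries held Il4 within 1.07 times, a range that 99% of 9544 genes exceeded or met, Il17f within 1.51 and Areg within 1.45 times. The shares of genes above and the 2-fold counts that follow use log2(CPM + 1), where 2-fold stands for a difference of at least 1. Over all 13436 genes tested, 18.5% were at least 2-fold higher in replicate 1 and 15.4% in replicate 2. Of the 13 ILC2 cytokine regulators tested, Gfi1 was at least 2-fold higher in replicate 1 and Rora, Stat5a and Irf4 in replicate 2. Of the 9 receptors that act upstream of ILC3 cytokines, Il1r1, Il1rap and Ltbr were at least 2-fold higher in replicate 1 and Il23r in replicate 2. Irf4 (0 and 1.42 CPM in replicates 1 and 2) and Ltbr (1.15 and 0 CPM) rested on few counts. Of the 16 receptors on the ILC2 side 3 were at least 2-fold higher in replicate 1 and 5 in replicate 2, and of the 12 ILC3 regulators 0 and 2. With 1 library on each side, these differences have no replicate check.

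**Figure D2:**
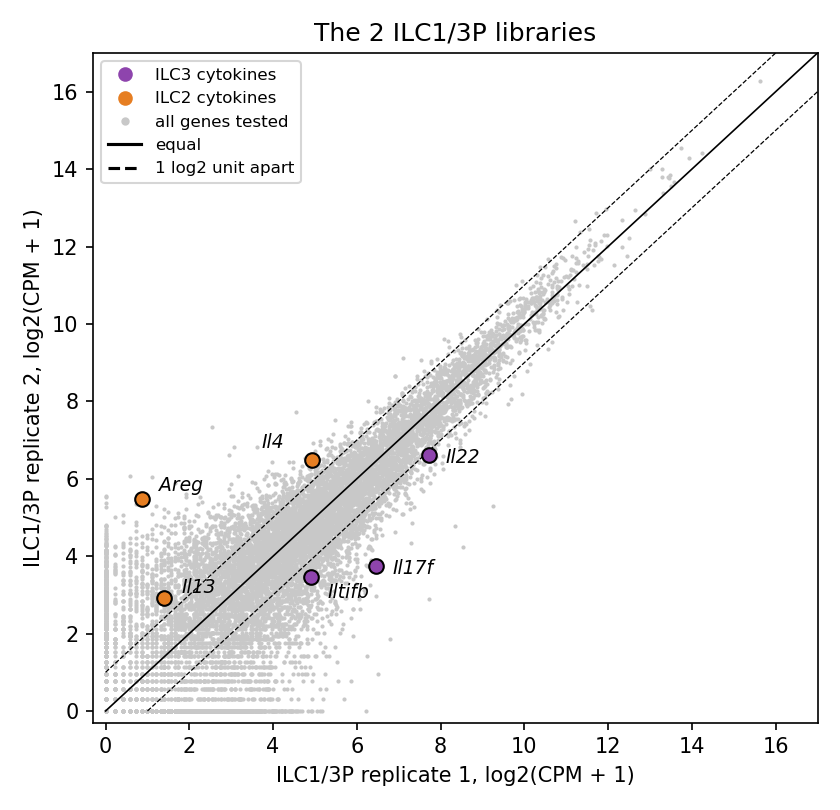
log2(CPM + 1) in ILC1/3P replicate 1 (horizontal) and replicate 2 (vertical) for all genes tested (grey) and 6 cytokine genes, with the line of equality and lines 1 log2 unit from it. The ILC3 cytokines Il22, Iltifb and Il17f fall below the line and the ILC2 cytokines Il4, Il13 and Areg above it; Areg is 52.6 times higher in replicate 2 than in replicate 1.

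Levels of different genes were compared as RPKM, that is per kilobase of merged exons and per library total. Library totals here are not TMM-scaled, and the TMM factors were 0.753 and 0.671 in ILC1/3P and 1.05 to 1.17 in ILCP. RPKM therefore lower ILC1/3P against ILCP and serve to compare genes within a library. On that scale Il22 stood at 101 ± 59.7 in ILC1/3P and 200.5 ± 41.1 in ILCP. In ILC1/3P the next were Il4 (33.2 ± 21.4), Il17f (18.3 ± 19.95), Iltifb (12.3 ± 9.25), Areg (12.2 ± 16.5) and Il13 (2.35 ± 1.88), and the ranges of Il4, Il17f, Iltifb and Areg over the libraries overlapped while Il22 lay above them in each library. In ILCP the next were Iltifb (17.3 ± 4.77), Areg (13.1 ± 2.13), Il4 (10.3 ± 0.319), Il17f (8.59 ± 1.65) and Il5 (1.01 ± 0.900). The ILC3 genes made up 90.8% and 47.4% of the summed level of all members in ILC1/3P libraries 1 and 2, and 88.8%, 92.0% and 89.5% in ILCP. In CLP they made up 0%, of a sum that was 4.59, 3.63 and 0.131. ILC1/3P replicate 2 thus stood apart from the other 4 libraries of ILC1/3P and ILCP in its share. The deposited FPKM divide by longer lengths for Iltifb, Il17f and Il4 (1808, 2976 and 1419 bases, against 1146, 2022 and 1227 bases of merged exons) and so give lower values for these genes; with them the ILC3 share was 91.2% and 48.4% in ILC1/3P.

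**Figure D3:**
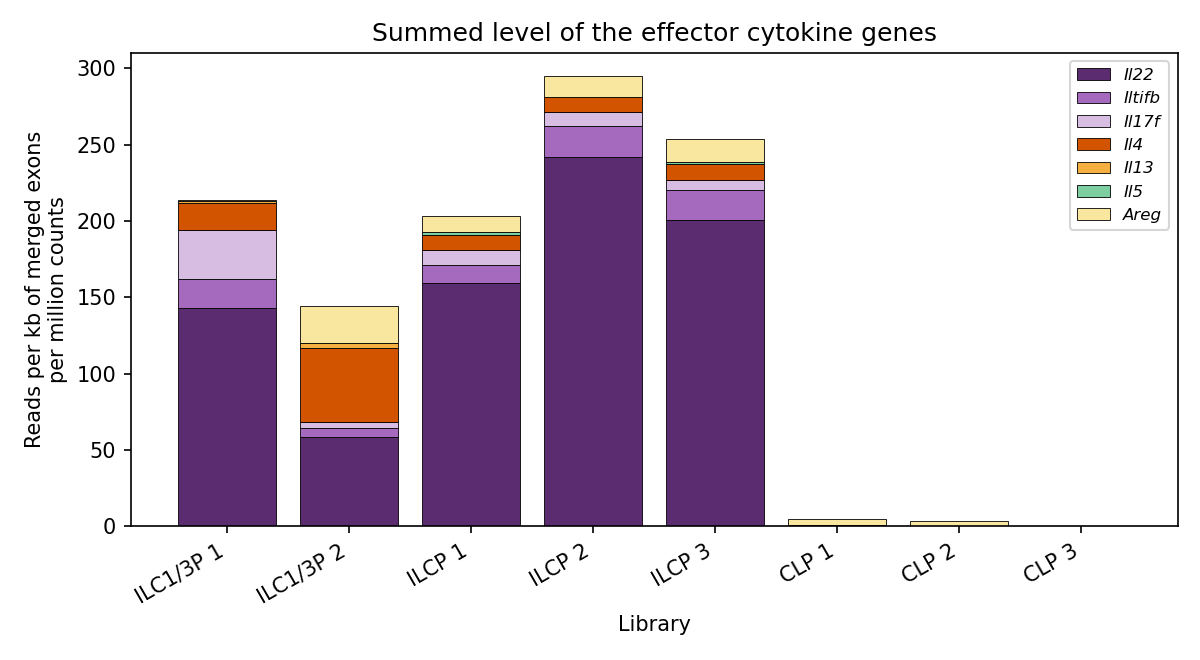
RPKM over merged exons, stacked over the cytokine genes, for each of the 8 libraries (ILC1/3P, ILCP, CLP). Library totals are not TMM-scaled, which lowers the ILC1/3P bars against the ILCP bars. Il22 is the largest part of every ILC1/3P and ILCP bar, and ILC1/3P replicate 2 is the bar with the largest Il4 and Areg parts (33.5% and 16.6% of its sum).

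Several genes that control ILC2 cytokines were higher in both ILC1/3P and ILCP than in CLP, and several were lower in ILC1/3P than in ILCP. Gata3, the factor that opens the type 2 cytokine cluster, had a mean of 79.8 ± 15.2 CPM for ILC1/3P, 215 ± 34.1 for ILCP and 2.56 ± 0.463 CPM in CLP, and was lower in ILC1/3P than in ILCP (-1.43 ± 0.30, log2 ± SE, adjusted p = 0.00823). Rora (163 ± 90.6, 585 ± 88.4 and 1.12 ± 0.236 CPM in the same order) and Bcl11b (10.6 ± 4.99, 83.0 ± 10.3 and 0 CPM) followed the same order of groups, lower in ILC1/3P than in ILCP by test (-1.85 ± 0.35 and -2.96 ± 0.52, log2 ± SE, adjusted p = 0.00497 and 0.00512). The sign of Il4 in that comparison was opposite to theirs. Irf4 averaged 0.709 ± 1.00 CPM in ILC1/3P, 0 in ILCP and 19.1 ± 3.05 CPM in CLP, lower than in CLP in both (adjusted p = 0.0468 and 0.00744). Its ILC1/3P call was lost when any 1 of 4 libraries was left out. Junb was lower in ILC1/3P (207 ± 20.4 CPM) than in CLP (652 ± 55.2 CPM, adjusted p = 0.0031). Of the 13 ILC2 regulators, all tested, 6 were called higher and 2 lower for ILC1/3P against CLP, 7 higher and 1 lower for ILCP against CLP, and 1 higher and 4 lower for ILC1/3P against ILCP. The list's median log2 fold change was 2.09, 1.21 and -1.10 in these comparisons, against -0.25, 0.01 and -0.23 over all genes tested. Of all genes tested 11.8%, 3.91% and 8.06% were called higher and 11.7%, 2.87% and 8.25% lower. The 1 regulator higher in ILC1/3P than in ILCP was Batf, an AP-1 family factor (1.14 ± 0.33, adjusted p = 0.0386). That call was lost when any 1 of 5 libraries was left out (highest adjusted p = 0.34) and with library-size scaling alone (adjusted p = 0.33).

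Among the ILC3 cytokine regulators, several were likewise higher in ILC1/3P and in ILCP than in CLP. Ahr, a ligand-sensing factor that Il22 transcription depends on, had a mean of 74.5 ± 0.241 CPM for ILC1/3P, 70.5 ± 17.9 for ILCP and 5.80 ± 4.26 CPM in CLP. It was higher in ILC1/3P than in CLP (3.70 ± 0.66, log2 ± SE, adjusted p = 0.00192) and in ILCP than in CLP (3.62 ± 0.63, adjusted p = 0.00388). Maf, which acts on both programs, averaged 289 ± 51.6, 306 ± 41.2 and 21.3 ± 9.60 CPM in ILC1/3P, ILCP and CLP. Stat3, which carries the IL-23 signal, was lower in ILC1/3P than in ILCP (12.9 ± 2.45 against 52.7 ± 14.6 CPM, adjusted p = 0.00754) and than in CLP (47.5 ± 6.15 CPM, adjusted p = 0.00692). Of these 12 regulators 5 were called higher and 3 lower for ILC1/3P against CLP, 5 higher and 1 lower for ILCP against CLP, and 1 higher and 4 lower for ILC1/3P against ILCP (Batf higher; Rora, Stat3, Hif1a and Tox lower). Leaving out ILC1/3P replicate 2 ended the Hif1a and Tox calls (adjusted p = 0.0507 and 0.0668). Their medians were 0.74, 0.42 and -0.002, against the medians of all genes given for the ILC2 regulators.

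Several receptors through which ILC2 and ILC3 are driven to make these cytokines were higher in both Flt3- groups than in CLP. Il17rb, the IL-25 receptor chain, had a mean of 22.6 ± 20.5 CPM for ILC1/3P, 88.6 ± 35.7 for ILCP and 0 in CLP. It was at least 140-fold higher in ILC1/3P than in CLP (adjusted p = 0.000272) and at least 618-fold higher in ILCP than in CLP (adjusted p = 0.000145). Il23r, the specific chain of the IL-23 receptor, averaged 21.3 ± 15.97, 82.5 ± 33.7 and 0 CPM in ILC1/3P, ILCP and CLP, and was at least 135-fold and at least 579-fold higher than in CLP (adjusted p = 0.000199 and 0.000101). Il18r1 and Icos, a costimulatory receptor, were higher in both groups than in CLP. Il7r was also lower in ILC1/3P than in ILCP (-1.17 ± 0.24, adjusted p = 0.00729). Il17ra, also on the ILC2 side, was lower in ILCP (7.26 ± 6.76 CPM) than in CLP (70.7 ± 20.2 CPM, adjusted p = 0.0321). Il1rl1 averaged 1.15 ± 1.63, 5.89 ± 1.84 and 0 CPM in ILC1/3P, ILCP and CLP. Crlf2 averaged 4.82 ± 5.89, 4.10 ± 1.95 and 8.52 ± 1.75 CPM, and neither Il1rl1 nor Crlf2 was called in any comparison. Of the 16 receptors on the ILC2 side 7 were called higher and 1 lower for ILC1/3P against CLP, 7 and 1 for ILCP against CLP, and 0 and 1 for ILC1/3P against ILCP. Of the 9 on the ILC3 side the counts were 4 and 1, 4 and 0, and 0 and 1. List medians were 0.88, 2.27 and -0.78 on the ILC2 side and 2.58, 1.83 and 0.17 on the ILC3 side. Scaling by library size alone moved the median of all genes to -0.86 for ILC1/3P against ILCP; the counts there became 0 higher and 6 lower for the ILC2 regulators, 0 and 4 for the ILC3 regulators, 0 and 3 for the receptors on the ILC2 side and 0 and 2 for those on the ILC3 side. For ILC1/3P against CLP the same scaling moved the median of all genes to -0.93. Counts there became 6 higher and 3 lower for the ILC2 regulators, 4 and 4 for the ILC3 regulators, 7 and 2 for the receptors on the ILC2 side and 4 and 1 for those on the ILC3 side.

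**Figure D4:**
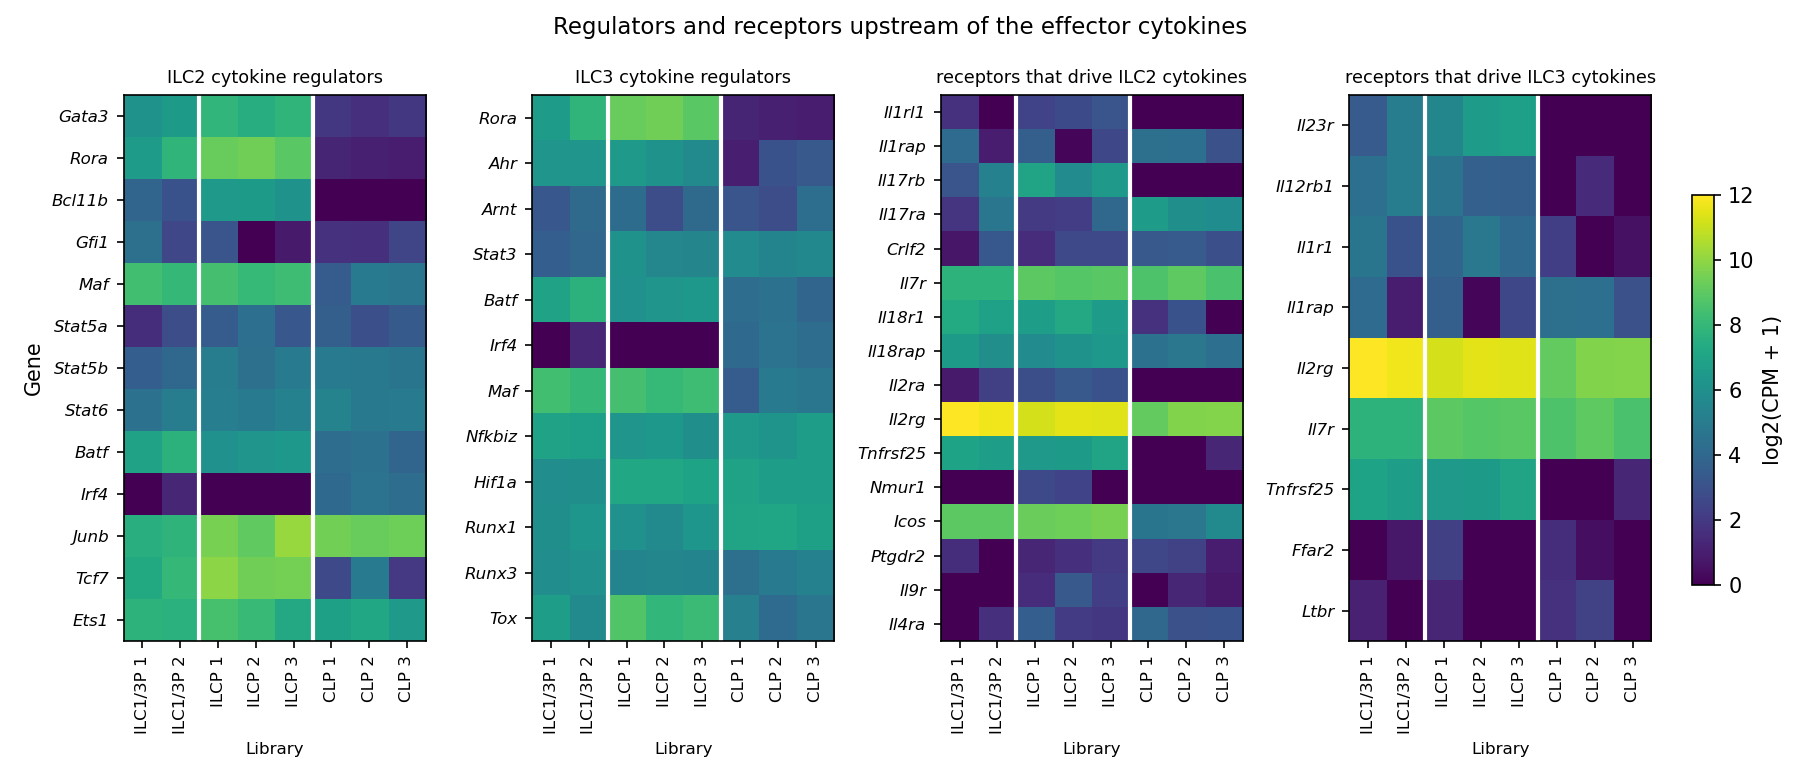
log2(CPM + 1) of the regulators and receptors (rows) in each library (columns; white lines separate ILC1/3P, ILCP and CLP). Gata3, Rora, Il17rb and Il23r are low or at 0 in the CLP columns, and Gata3, at 79.8 CPM in ILC1/3P and 215 CPM in ILCP on average, is brighter in the ILCP columns.

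Of 13 receptor genes for the cytokines themselves 8 passed the filter, and Il22ra1, Il13ra2 and Egfr had no count in any library. In ILC1/3P against CLP 1 was higher (Il2rg, the shared chain of the IL-4 and IL-9 receptors). There 1 was lower (Il10rb, the shared chain of the IL-22 receptor, 13.4 ± 8.26 against 59.1 ± 10.3 CPM, adjusted p = 0.00889). Over all genes tested 11.8% were higher and 11.7% lower, so 1 of 8 either way is near the share of all genes. In ILCP against CLP 1 was higher and 2 lower (3.91% and 2.87% of all genes tested), Il17ra among the lower (7.26 ± 6.76 against 70.7 ± 20.2 CPM, adjusted p = 0.0321). Between ILC1/3P and ILCP none of the 8 passed. Leaving out ILC1/3P replicate 2 ended the Il10rb call (adjusted p = 0.0526), and leaving out any 1 of 5 libraries ended the Il17ra call (highest adjusted p = 0.122). Library-size scaling alone gave 1 higher and 3 lower in ILC1/3P against CLP. Of 15 family relatives of the members, Egf and Hbegf alone passed the filter and neither was called in any comparison.

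Other lymphocyte cytokines differed between the groups as well. Ifng, the ILC1 and NK cell cytokine, had a mean of 1288 ± 474 CPM for ILC1/3P, 21.8 ± 8.35 for ILCP and 0 in CLP, and Csf2 (GM-CSF) averaged 148 ± 12.5, 11.2 ± 4.28 and 0 CPM. Both were higher in ILC1/3P than in ILCP (5.88 ± 0.43 and 3.73 ± 0.46, log2 ± SE, adjusted p = 0.000109 and 0.00114), as was Ltb (0.94 ± 0.23, adjusted p = 0.0186, but 0.29 with an adjusted p of 0.347 under library-size scaling alone). Leaving out ILCP replicate 3 or ILC1/3P replicate 2 ended the Ltb call (highest adjusted p = 0.128). Tnfsf11 (RANKL), which lymphoid tissue inducer cells carry, was lower in ILC1/3P than in ILCP (7.23 ± 1.87 against 51.3 ± 9.38 CPM, adjusted p = 0.00224). Of 14 such cytokines 9 were tested: 3 were called higher and 2 lower for ILC1/3P against ILCP, 4 and 2 for ILC1/3P against CLP, and 4 and 0 for ILCP against CLP. Over all genes tested the shares were 8.06% and 8.25%, 11.8% and 11.7%, and 3.91% and 2.87% in the same order. Among 8 factors that control decay of cytokine mRNA, 3 (Zfp36, Rc3h2 and Elavl1) were lower in ILC1/3P than in ILCP and than in CLP, and 0 were called in ILCP against CLP. Of these, Zfp36 (tristetraprolin), which destabilises cytokine mRNA, had a mean of 123 ± 6.43 CPM for ILC1/3P, 400.4 ± 214 for ILCP and 817 ± 71.4 CPM in CLP (adjusted p = 0.0125 and 0.000662 for ILC1/3P against each). Leaving out ILC1/3P replicate 2 ended the calls of Zfp36 and Elavl1 against ILCP (adjusted p = 0.0786 and 0.0574). The Rc3h2 calls (adjusted p = 0.0465 against ILCP and 0.0438 against CLP) ended when any 1 of 6 or any 1 of 5 libraries was left out (highest adjusted p = 0.2 and 0.201). With RLE size factors 2 and not 3 of these factors were lower in each comparison.

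The nearest tested genes on the chromosome that are not members themselves are given beside the members. Around Il4 and Il13, Kif3a and Rad50 were not called in any comparison, and Il4 lies 1 kb from Kif3a. Around Il5, Irf1 was higher in ILC1/3P than in ILCP (1.93, adjusted p = 0.0197) and than in CLP (1.51, adjusted p = 0.0433). Il22 and Iltifb have Mdm1 on one side, which was not called, and Ifng on the other, 231 and 146 kb away, with the values given above. Mcm3, 12.4 kb from Il17f, was not called in any comparison. Tifab, 300.4 kb from Il9, was at 0 in ILC1/3P and in ILCP and at 73.3 ± 19.8 CPM in CLP, and was lower in both than in CLP (adjusted p = 0.000158 and 7.36e-05). On the other side of Il9, Fbxl21, 40.2 kb away, was higher in ILCP than in CLP (4.86, adjusted p = 0.0102), and Rchy1, 800.5 kb from Areg, was higher in ILC1/3P than in CLP (3.19, adjusted p = 0.00097) and in ILCP than in CLP (2.09, adjusted p = 0.018).

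The genes whose pattern was most like a member's were found by the root mean square difference of log2(CPM + 1), centred per gene, over the 8 libraries, among 6793 candidates. Candidates were tested genes other than members with a mean of at least 20 CPM in at least 1 group. Genes with provisional names such as Gm or Rik, and pseudogenes, were left out. The genes most like Il22 were Ccr8 (0.46 log2 units), a chemokine receptor, Txk (0.51), a Tec family kinase, and Trbc1 (0.64), a T cell receptor constant segment. Prrg1 (0.33), Icos (0.51) and F2rl2 (0.53) were nearest to Iltifb, and Gpr15 (0.55), a homing receptor, Chst11 (0.68) and Dock5 (0.70) to Il17f. Il4 was closest to Dll1 (0.41), a Notch ligand, Nkg7 (0.44), a cytotoxic granule protein, and Cd7 (0.46). Cd7 for example had 2364 and 6413 CPM in ILC1/3P, 484, 562 and 768 CPM in ILCP and 68.2, 93.3 and 104 CPM in CLP. For Il5 the nearest were Rftn1 (0.22), Rab37 (0.29) and Ikbip (0.29). Il5 reached at most 2.28 CPM and so varied little on this scale, and its distances cannot be compared with those of other members. Rftn1 had 61.5 and 55.3 CPM in the ILC1/3P libraries, where Il5 had no count. Areg stood farthest from its nearest genes, Rab22a (0.79), Srrd (0.85) and Mis12 (0.89). Likeness over 8 libraries is a description and says nothing about shared control.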

How the data were processed

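RNA of the sorted cells was turned into PCR-amplified cDNA with a SMARTer Ultra Low kit and read on a NovaSeq6000, per the labels' protocols. No molecular identifiers are described, so floors cover counting error only. For each of 8 libraries the authors deposited a whole-number count and an FPKM value per gene. The submitters' processing notes name mm10. Not given in the sources used here are aligner, counter, annotation release and strand use.

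Titles gave group and replicate, and 0 value columns were left unmapped. Counts were tested with edgeR 4.0.16 (R 4.3.3): filterByExpr (13436 genes kept), TMM scaling, a robust quasi-likelihood fit over all 8 libraries, 2-sided tests for 3 contrasts and Benjamini-Hochberg adjustment over all genes tested, with calls at an adjusted p under 0.05. Standard errors came from the F statistic. Where a group had no count, a fold is a bound from counts pooled over the other group against 3 counts pooled over the empty one. The biological coefficient of variation was 0.679. On simulated counts with known changes, 8-fold changes were called in 66% of cases for ILC1/3P against ILCP (12697 genes), 60% for ILC1/3P against CLP (12744) and 66% for ILCP against CLP (12770). The changed genes had a mean of at least 5 CPM, and the simulated spread followed the trend over genes of like level. These shares therefore do not cover genes at lower levels, such as Il5 and Il13, or genes that vary more than the trend.

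The members, the 14 gene lists and the alternatives were chosen with earlier results of these data known; 1 regulator is not reported here. Genes were named by a rule: all members, called list genes (up to 5 per list and comparison by smallest p), the nearest tested genes on the chromosome that are not members, and the 3 genes most like each member. Genes outside this rule were chosen after their values were seen. Named genes whose exons overlap another gene in GENCODE M21, and are uncertain without strand, are Ahr, Cd3e, Cd7, Csf2, Dll1, Egf, Elavl1, Gata3, Gfi1, Gpr15, Hif1a, Ifng, Il10rb, Il17rb, Il1rap, Il2rg, Irf1, Itga4, Junb, Maf, Mdm1, Mis12, Mpo, Rab22a, Rchy1, Rora, Srrd, Stat3, Stat5a, Tox, Trdc and Zfp36. Alternatives were other scalings (RLE, library size), DESeq2 1.42.0, limma 3.58.1 on log2 of the deposited FPKM plus 0.1 or 1, other filters, a replicate block, only the groups compared, Il22 and Iltifb summed, and each library left out.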

Additional observations from a re-analysis of the deposited data

How the results depend on the processing

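The calls of Il22, Iltifb, Il17f and Il4 against CLP held in ILC1/3P and in ILCP under all alternatives run and without any library, as far as Iltifb was kept apart from Il22. Between ILC1/3P and ILCP the 1 member called (Il4) became 0 with library-size scaling alone, under the replicate block and with limma on log2(FPKM + 0.1), and 0 to 1 leaving out 1 library; without ILC1/3P replicate 2 that 1 was Il17f. Reversed signs in this comparison were, for Iltifb, -0.49 with library-size scaling, -0.67 and -0.59 with limma (plus 0.1, plus 1), and -0.87 to 0.67 leaving out 1 library. For Areg they were -0.11 with library-size scaling, -0.84 under the replicate block, -1.78 and -1.20 with limma, and -4.10 to 1.57 leaving out 1 library. Leaving out 1 library also gave -1.07 to 0.062 for Il22, -0.33 to 2.47 for Il17f, and -1.69 to 4.00 for Areg in ILC1/3P against CLP.

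Counts over all genes moved more. ILC1/3P against ILCP gave 1083 higher and 1109 lower; these were 474 and 2141 with library-size scaling, 607 and 2594 with limma plus 0.1, 662 and 2379 with limma plus 1, and 623 to 1066 and 689 to 1233 leaving out 1 library. ILC1/3P against CLP gave 1592 higher and 1571 lower, and 946 and 2807 with library-size scaling, with 3368 and 3183 lower by limma. ILCP against CLP gave 526 higher (869 with DESeq2; 347 to 613 leaving out 1 library) and 386 lower (602 with no filter, 638 and 740 with limma, 741 with DESeq2; 215 to 502 leaving out 1 library). Library-size scaling moved the median log2 fold change of all genes from -0.23 to -0.86 for ILC1/3P against ILCP.

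No label says that replicate numbers pair libraries of different groups. Deviations of same-numbered libraries correlated at -0.034 to 0.121 over 7 pairs, 1 of them above 0.1, and those of other pairs at -0.126 to 0.053. The deviations were taken from the means of small groups, which ties these values to each other. They cannot decide whether the numbers pair libraries. Under the replicate block Il4 in ILC1/3P against ILCP stood at 2.23 (adjusted p = 0.161). With 2 ILC1/3P libraries, leaving out 1 assumes that the other varies like the remaining groups. Il13, Il5, Il17a and Il9 had at most 28 counts in any library; whether depth limits them was not tested. The causes of these shifts were not tested.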
